A study of Mus musculus with 4 samples.

Results

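The 8 genes described here encode components of the complement system and of MHC class I. They are *C1qa*, *C1qb*, *C1qc*, *C3*, *C4b*, *B2m*, *H2-D1* and *H2-K1*, looked up by gene name among the 13558 names that peaks carry in the deposited m6A tables. A gene without a row was counted as having no peak. The 5 genes *C1qa*, *C1qb*, *C1qc*, *H2-D1* and *H2-K1* had a peak in both peak lists, and *C3*, *C4b* and *B2m* had none in any of the 3 tables.

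C57BL/6J mice of 6 to 8 weeks underwent chronic constriction injury (CCI), with loose ties at 4 sites of the sciatic nerve, or sham surgery without ligatures, and the spinal cord was collected on day 7. RNA fragments were captured with an antibody against m6A (IP) and set against the RNA before capture (input), with 1 IP and 1 input library per group, and the number of mice behind a library is not stated. No difference between CCI and sham therefore has a replicate check, and values are described without a test. The value of each peak is the fold enrichment of IP over input that the authors deposited, and with no read counts used the sequencing depth is unknown.

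Complement is a cascade of plasma and tissue proteins that tags surfaces for clearance. C1q recognises the target and starts the classical pathway, which leads through C4 and C2 to cleavage of C3, and in the nervous system C1q and C3 are known for the tagging of synapses that microglia remove. MHC class I presents peptides from inside the cell on a heavy chain bound to β2-microglobulin. m6A is a methyl mark on adenosine inside mRNA, found mostly near stop codons and in 3′-UTRs, and a peak marks a stretch of transcript that the antibody enriched, not a single base.

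The lists were first read for the tissue. All 8 neuronal markers had a peak in both lists, as did 6 of 8 microglial and 6 of 8 astrocytic markers. The missing ones were *Trem2* and *Tyrobp* of microglia and *S100b* and *Aldoc* of astrocytes. Of 8 oligodendrocyte markers, 7 had a peak in CCI and 8 in sham, with *Cldn11* missing from CCI. Among endothelial markers 4 of 5 had a peak in each list. Of 7 Hox genes that mark the position of the spinal cord, 6 had a peak in each list, whereas 1 of 4 forebrain markers did. None of the 6 blood leukocyte markers had a peak in either list. A peak needs both RNA and methylation, so a marker without a peak may still be expressed, and a change in cell numbers cannot be told apart from a change within cells in whole tissue.

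The 5 members with a peak in both lists were 5 of 8, beside 48.0% of the 21900 protein-coding symbols in RefSeq. They carried 9 peaks in the CCI list and 11 in the sham list. Every one of the 9 CCI peaks paired with a sham peak of the same gene, where a pair is formed by 2 peaks that are each other's best partner over at least 1 bp of exonic sequence. The other 2 sham peaks had no CCI partner. Over the whole lists, 19.0% of CCI peaks and 21.0% of sham peaks were unpaired.

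**Figure D1:**
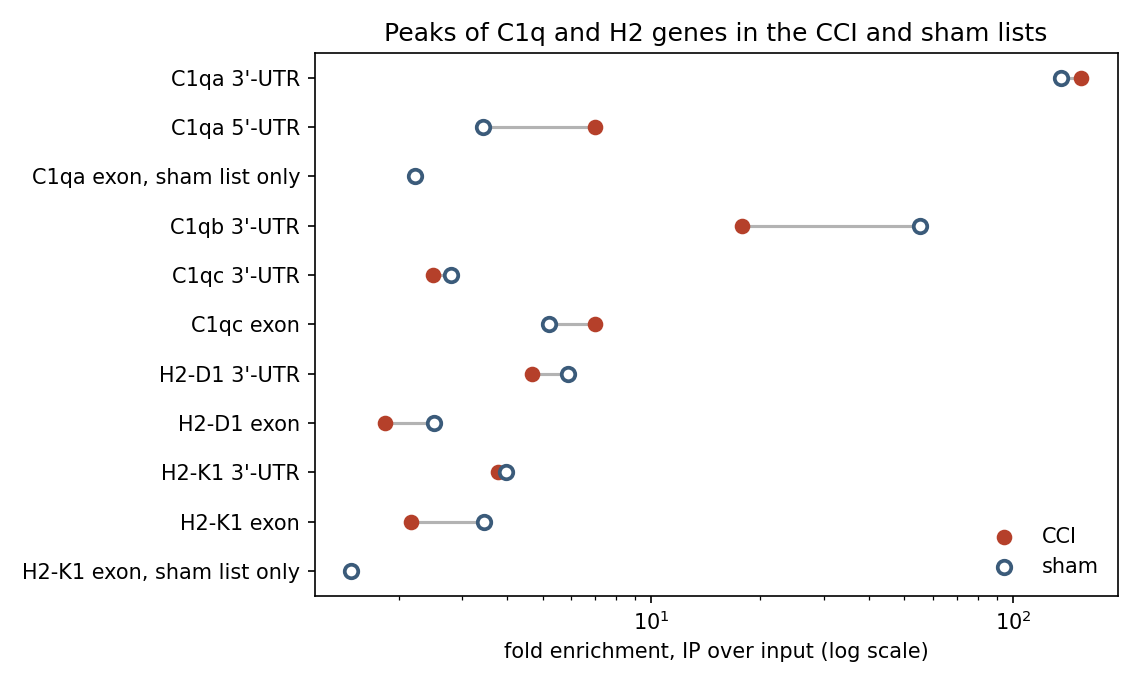
Fold enrichment of IP over input (log scale) of each peak of the 5 genes in the CCI list (filled points) and the sham list (open points), with paired peaks joined by a line and 1 library of each kind per group. *C1qb* and the 5′-UTR peak of *C1qa* show the widest gaps, and 2 sham peaks have no CCI partner.

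The 3 C1q genes encode the A, B and C chains of the C1q protein and lie together within 18.7 kb of chromosome 4 on the minus strand. *C1qa* (ENSMUSG00000036887) carried the strongest peak of the 8 genes. Its 3′-UTR peak, at chr4:136895917-136896244, had a fold enrichment of 154 in CCI and 136 in sham. This ranked 261 of 33556 CCI peaks and 298 of 34406 sham peaks, within the top 0.778% and 0.866%. The peak had identical borders in both lists and reached the annotated end of the transcript, and its log2 ratio of CCI over sham was 0.18. The 3′-UTR of *C1qa* was thus among the most enriched stretches of the spinal cord in either group. Peaks at the transcript end were high as a class. The 3′-UTR pairs that reach it in both lists had a median fold enrichment of 14.95 in CCI and 14.5 in sham. Other 3′-UTR pairs had medians of 5.73 and 5.4.

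The other *C1qa* peaks were weaker. A 5′-UTR peak ran across the first intron, from a block of 58 bp at the transcript start (chr4:136898746-136898803) to a block in the next exon of 32 bp in CCI and 62 bp in sham. Its fold enrichment was 7.00 in CCI and 3.43 in sham, a log2 ratio of 1.03. A peak in exon 3 of 3, at chr4:136896570-136896689, was listed in sham with a fold enrichment of 2.22 and had no CCI partner. Along 1 transcript, the 5′ end was thus higher in CCI, the 3′ end was nearly level, and the weakest peak was listed in sham only. The median log2 ratio over all 3943 pairs in 5′-UTRs was -0.07, and 20.2% of them were at least 1.5-fold higher in CCI.

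*C1qb* (ENSMUSG00000036905) had 1 peak per list, with the same borders in both, over the last 236 bp of its 3′-UTR (chr4:136880129-136880364). The fold enrichment was 17.8 in CCI and 55.4 in sham, which is 3.11-fold lower in CCI, a log2 ratio of -1.64. In rank it stood at 4728 among the CCI peaks and 1090 among the sham peaks. This was the widest gap of the 8 genes. Of all 27179 pairs, 2.33% were as low or lower. Pairs that reach the transcript end, as this one does, spread more widely than other 3′-UTR pairs: the middle 50% of 1398 such pairs ran from -0.55 to 0.65, against -0.29 to 0.44 for 11255 others, and 4.86% of the first kind were as low as *C1qb* or lower. The log10 p of the IP against the input, the authors' score, was -97.5 in CCI and -119 in sham, so both calls were strong.

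*C1qc* (ENSMUSG00000036896) lies between the other C1q genes. Its 3′-UTR peak (chr4:136889863-136890101) again had identical borders, ended 59 bp before the transcript end, and had a fold enrichment of 2.49 in CCI and 2.80 in sham. Its second peak joined a block of 125 bp in the exon before the last (chr4:136891651-136891775) to a block at the start of exon 3 of 3, of 202 bp in CCI and 232 bp in sham. The fold enrichment there was 6.98 in CCI and 5.20 in sham, a log2 ratio of 0.42. In *C1qc* the peak over the exon junction was stronger than the 3′-UTR peak, the reverse of *C1qa*.

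The 3 chains thus did not share a direction. Of the 5 C1q pairs, 3 were higher in CCI (both of *C1qa* and the exon pair of *C1qc*) and 2 were lower (*C1qb* and the 3′-UTR pair of *C1qc*). The strongest peak of each gene differed in level too, from 154 for *C1qa* to 17.8 for *C1qb* and 6.98 for *C1qc* in CCI, and from 136 to 55.4 and 5.20 in sham. The order of the genes was the same in both lists. It compares unlike positions, since the peaks of *C1qa* and *C1qb* reach the transcript end and that of *C1qc* lies over an exon junction. These levels are IP over input and do not measure how much of each RNA was present.

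**Figure D2:**
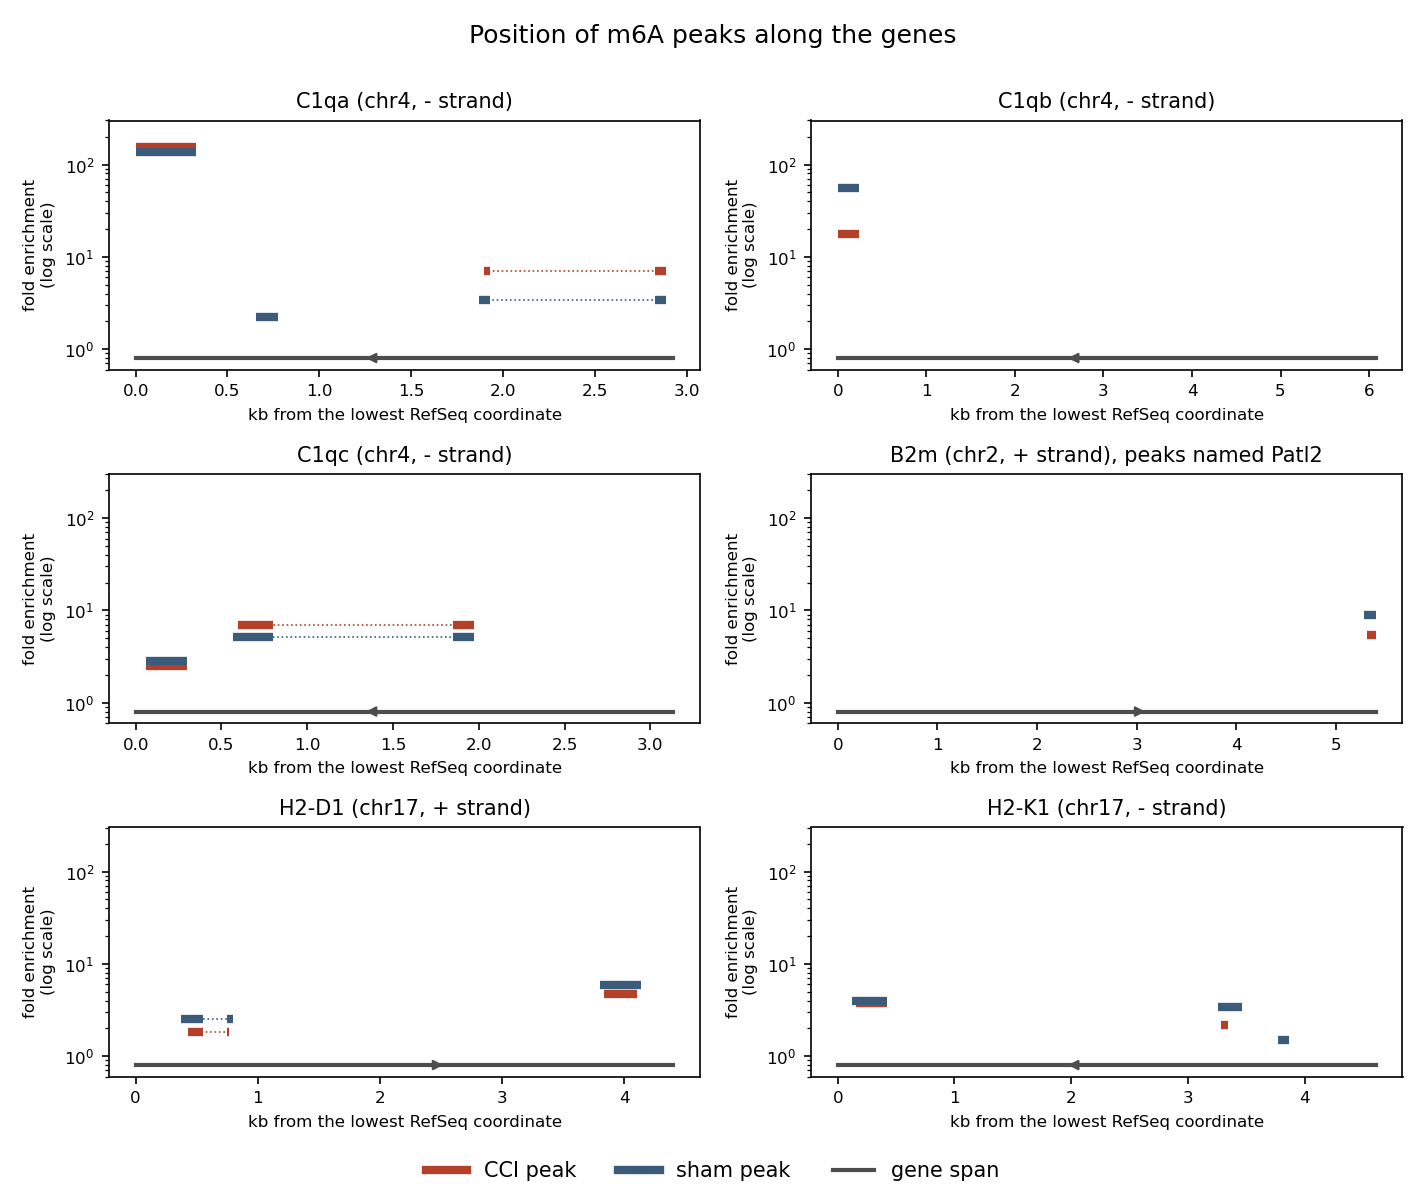
Fold enrichment (log scale) against position along each gene, in kb from its lowest RefSeq coordinate, for CCI peaks (red) and sham peaks (blue); dotted lines join the exonic blocks of 1 peak, the grey bar is the gene and its arrow the direction of transcription. Peaks of *C1qa* and *C1qb* reach the 3′ end, and the peaks over the 3′ end of *B2m* carry the name *Patl2*.

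*C3* encodes the central complement protein, and *C4b* encodes C4, which acts between C1 and C3. Neither gene had a row in the CCI list, the sham list or the differential table, and no peak of another name lay over their RefSeq spans on chromosome 17. Whether their RNA was scarce or unmethylated cannot be told apart without counts.

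*B2m* encodes β2-microglobulin, the light chain of MHC class I. No row carried its name. Each list did have a peak over its 3′ end that carried the name *Patl2*, a gene annotated on the opposite strand across the same stretch. In CCI it lay at chr2:122152994-122153083 with a fold enrichment of 5.44, and in sham at chr2:122152965-122153083 with 8.81, a log2 ratio of -0.70. Of its 90 bp in CCI, 89 lay inside the RefSeq span of *B2m*, and the peak ended 1 bp past the end of that span. The libraries were made by a strand-specific method, but whether strand was used in peak calling is not stated, and which of the genes gave this signal was not tested. By name *B2m* has no peak, and it is counted so. *Patl2* was noticed after its values were seen.

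*H2-D1* (ENSMUSG00000073411) and *H2-K1* (ENSMUSG00000061232) encode the classical class I heavy chains of the mouse, on chromosome 17. *H2-D1* had a 3′-UTR peak with a fold enrichment of 4.69 in CCI (chr17:35266929-35267199) and 5.88 in sham (chr17:35266899-35267229). The sham peak was wider by the same 30 bp at both borders. A second peak covered part of exon 2 of 8 and the first bases of the next exon, with a fold enrichment of 1.83 in CCI over 150 bp and 2.51 in sham over 240 bp. The log2 ratios were -0.33 and -0.46, so both peaks of *H2-D1* were lower in CCI, with neither past 1.5-fold. Both were also narrower in CCI, as were CCI peaks over the whole lists, with a median exonic length of 211 bp against 239 bp in sham.

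*H2-K1* lies on the minus strand. Its 3′-UTR peak had a fold enrichment of 3.76 in CCI (chr17:33996167-33996437) and 3.97 in sham (chr17:33996137-33996437), a log2 ratio of -0.08. In exon 3 of 8 the CCI peak covered 61 bp (chr17:33999297-33999357) at 2.17 and the sham peak 211 bp (chr17:33999267-33999477) at 3.44, a log2 ratio of -0.66. This pair was lost when each peak had to share at least 50% of its bases with the other. A peak in exon 2 of 8 (chr17:33999783-33999873), at a fold enrichment of 1.48, was listed in sham only. The heavy-chain peaks were thus modest in both groups. The 4 pairs of these genes were all lower in CCI, beside 47.8% of all pairs, and were lower on the rank scale too. Centring on the median of all pairs (0.03) could not change their sign. Of the 4, 1 is the exon 3 pair lost under the stricter overlap.

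The heavy-chain genes are close copies, so reads from one may have been assigned to the other. Their values are uncertain for this reason, and read assignment was not tested.

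Set side by side, 6 of the 9 pairs were lower in CCI, beside 47.8% of all pairs. Past 1.5-fold, 1 pair was higher in CCI (the 5′-UTR pair of *C1qa*), beside 18.8% of all pairs, and 2 were lower (*C1qb* and the exon 3 pair of *H2-K1*), beside 16.4%. With 9 pairs, these counts sit near the background. The median log2 ratio of the 9 pairs was -0.17, and that of all pairs was 0.03. The score of IP against input was weaker in CCI for 7 of the 9 pairs, and for 69.9% of all pairs, so this held across the lists as a whole. Identical exonic blocks in both lists were found in 3 of the 9 pairs, the 3′-UTR pairs of the C1q genes, and in 19.3% of all pairs.

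**Figure D3:**
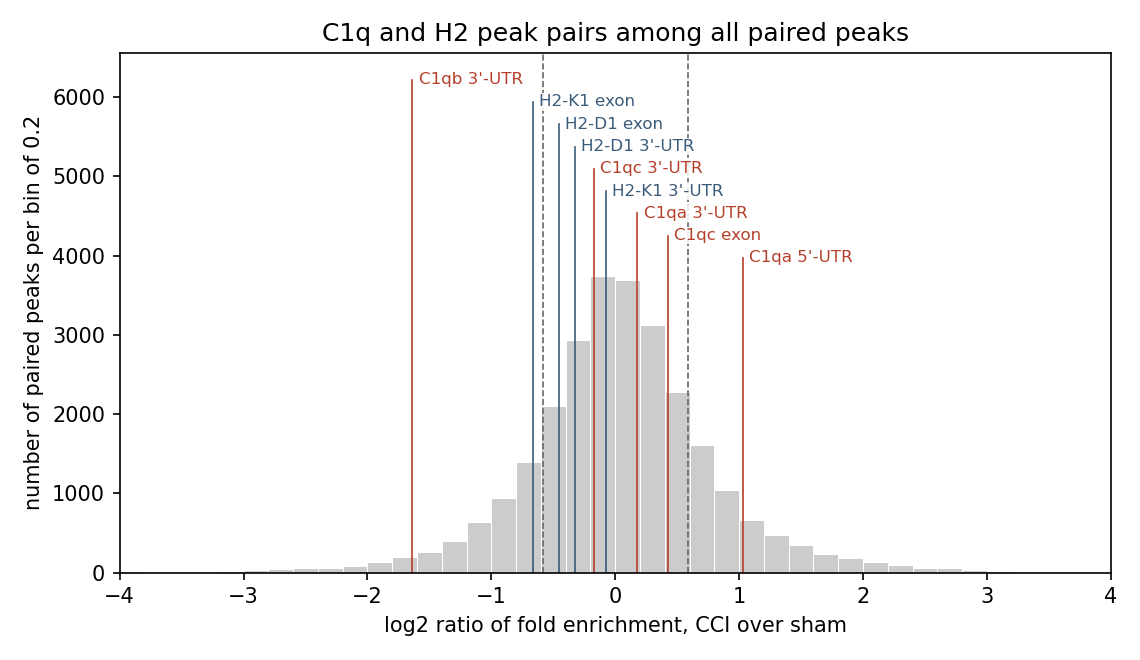
Number of paired peaks per bin of 0.2 of the log2 ratio of fold enrichment, CCI over sham (grey bars), with values beyond the axis placed in its end bins. Vertical lines mark the C1q pairs (red) and H2 pairs (blue), dashed lines mark 1.5-fold in each direction, and *C1qb* at -1.64 and the 5′-UTR pair of *C1qa* at 1.03 lie farthest out.

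The authors' differential table held 3 rows of these genes, 1 for *C1qc* and 2 for *H2-D1*. Thus 2 of the 5 genes with a peak had a row, beside 25.3% of all gene names with a peak in either list. The *C1qc* row is the peak over the exon junction (chr4:136890368-136891775), with a merged fold enrichment of 4.80. The *H2-D1* rows are the exon 2 peak (chr17:35263492-35263861) at 2.15 and the 3′-UTR peak (chr17:35266899-35267229) at 5.47. All 3 lie over pairs whose ratio in the lists was under 1.5-fold. *C1qb* and the 5′-UTR peak of *C1qa*, with the widest ratios, had no row.

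By region, the authors' annotation placed 5 of the 9 CCI peaks within 3′-UTRs, 3 within exons outside the UTRs and 1 within a 5′-UTR. In sham the counts were 5, 5 and 1 of 11. Over all CCI peaks the shares were 49.8% in 3′-UTRs, 35.5% in exons and 14.7% in 5′-UTRs, and in sham 48.9%, 35.1% and 16.1%. Each of the 5 genes with a peak had a 3′-UTR peak in both lists. Member peaks had a median fold enrichment of 4.69 in CCI and 3.44 in sham, against 5.73 and 5.70 over all peaks. The sham median includes the unpaired peaks, and over the 9 pairs alone the medians were 4.69 and 3.97. Most of these pairs were lower in CCI, so the medians do not give the direction within pairs.

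A list of 40 other complement genes set the C1q genes in their pathway. Of these, 18 had a peak in both lists, 4 in CCI only, 2 in sham only and 16 in neither. Of all protein-coding symbols, 48.0% had a peak in both lists. Of 13554 gene names with a peak in either list, 12408 had one in CCI and 12907 in sham. Names in 1 list only were thus more often in sham over the whole lists. The complement list gave 42 pairs, of which 28 were higher and 14 lower in CCI, with 10 past 1.5-fold higher and 2 past it lower. Over all pairs 47.8% were lower, 18.8% were past the fold higher and 16.4% past it lower. The median log2 ratio of the list was 0.17. Genes with several peaks count several times here, and *Sez6l* alone gave 6 pairs. The list also holds membrane proteins with complement control domains, such as those of *Sez6* (4 pairs) and *Susd4* (3 pairs). Its counts are therefore not those of the cascade alone.

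The proteases that bind C1q are encoded by *C1ra* and *C1s1*. The *C1ra* pair had a fold enrichment of 12.9 in CCI and 29.1 in sham, a log2 ratio of -1.17. A further CCI peak of *C1ra*, at 14.1, had no sham partner. *C1s1*, with a peak at 2.51, and the related *C1rl*, at 8.86, had peaks in CCI only. *Serping1* encodes the C1 inhibitor, which blocks these proteases, and its 3′-UTR pair stood at 36.0 in CCI and 12.5 in sham, a log2 ratio of 1.53. Its second pair was at 3.65 and 3.05. Genes of the C1 complex and its inhibitor thus lay on both sides, as the C1q chains did.

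Further along the pathway, *C2* encodes the protease that forms the C3 convertase with C4. Its widest pair stood at 40.7 in CCI and 10.7 in sham, but the CCI peak covered 921 bp and the sham peak 476 bp. These peaks lay 2594 and 2564 bp from the end of the transcript that the authors assigned. An adjacent *C2* pair, at 12.2 and 7.82, lay 2208 bp from that end in CCI but 32717 bp from another end in sham. Whether these peaks belong to *C2* or to a neighbouring gene was not tested. An unpaired sham peak of *C2* stood at 35.8, so its strongest peaks in each list were close. The receptor for the C3a fragment, encoded by *C3ar1*, had the pair with the widest ratio of the list, at 21.9 in CCI and 4.42 in sham, a log2 ratio of 2.31. These peaks shared only 31 bp, with a log10 p of -6.45 and -2.99, and a further sham peak at 20.9 had no CCI partner, so the strongest peaks of the gene in each list were nearly level. *C5ar1*, the C5a receptor, had a peak in sham only, at 11.6, as did *Cfp*, which encodes properdin, at 26.7. *C8g*, at 2.01, and the regulator *Cd46*, with a strongest peak of 1.5, had peaks in CCI only. *Sez6* and *Susd4*, which encode membrane proteins with complement control domains, had pairs at 15.8 and 4.81, and at 13.8 and 5.81. These were the widest pairs of each gene. *Sez6* had its strongest pair at 42.4 and 25.3 and its weaker pairs were near level. *Susd4* also had a pair at 9.85 in CCI and 11.7 in sham, so its strongest peaks in each list were close. The named pairs past the fold, except that of *C1ra*, were higher in CCI, and none has a replicate check. Of the 24 genes of the list with a peak in either list of peaks, 5 had a row among the differential peaks, beside 25.3% of all such gene names. They were *Clu*, *Susd4*, *Sez6*, *Sez6l* and *Sez6l2*, named here after their values were seen.

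A list of 33 other genes of the class I pathway was read in the same way. Of these, 23 had a peak in both lists, 1 in CCI only, 1 in sham only and 8 in neither. Beside them stand 48.0% of all protein-coding symbols with a peak in both lists. Of the 13554 names with a peak in either list, 12408 had one in CCI and 12907 in sham. Of the 43 pairs of this list, 24 were higher and 18 lower in CCI. Past 1.5-fold, 12 were higher and 7 lower, beside 18.8% and 16.4% of all pairs. The median log2 ratio of the list was 0.17. The peptide supply stood on both sides. *Psmb10*, a subunit of the immunoproteasome, had a 3′-UTR pair at 6.52 in CCI and 22.1 in sham, a log2 ratio of -1.76, and a 5′-UTR pair at 5.35 and 2.59. *Psme1*, which encodes a proteasome activator, had its widest pair at 33.9 in CCI and 16.1 in sham. Another was also higher in CCI, at 21.7 and 13.4, and the remaining pair was lower, at 11.4 and 19.5. The partner of *Psme1*, *Psme2*, had a peak in sham only, at 11.6. *Tapbp*, which encodes tapasin, the protein that holds the heavy chain at the peptide transporter, had its widest pair at 6.97 in CCI and 18.0 in sham. Its other 6 pairs lay on both sides. Among them was one at 5.04 and 2.00, and the strongest was level at 52.6 and 53.1. The pair at 5.04 is labelled 3′-UTR (chr17:33919057-33919265 in CCI). Yet it lies inside the span of the strongest pair, labelled 5′-UTR (chr17:33915959-33919625 in CCI). Whether these peaks belong to *Tapbp* or to a neighbouring gene was not tested. The chaperone calnexin, encoded by *Canx*, had a 5′-UTR pair at 7.62 and 3.31, and a 3′-UTR pair that was nearly level at 4.88 and 4.64.

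Among class I-like heavy chains, the nonclassical *H2-Q4* had a pair at 62.0 in CCI and 21.8 in sham and another at 28.3 and 30.2, and *Fcgrt*, the neonatal Fc receptor, which also binds β2-microglobulin, had its widest pair at 13.8 and 5.18. *H2-Q7* had pairs on both sides, at 16.2 and 8.87 and at 6.78 and 12.8, and *H2-Q6* had a pair at 14.6 and 8.91 beside an unpaired sham peak at 28.5. *H2-T24* had a pair at 2.07 and 2.86, with a strongest CCI peak at 7.73, and *H2-T23* had a pair at 4.04 and 3.92, with a strongest CCI peak at 17.2. The pairs of the nonclassical chains thus lay on both sides. H2-Q genes are close copies too, and the same doubt on read assignment holds for them. *Irf1*, a transcription factor of the interferon response, had a peak in CCI only, at 8.34. The table of differential peaks held rows for 4 of the 25 genes with a peak in CCI or sham, beside 25.3% of all such names. These were *H2-Q6*, *Calr*, *Pdia3* and *Ifngr1*, named after their values were seen.

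The listed genes nearest to each member were found from the strongest pair of each gene, by the Euclidean distance of log2 fold enrichment over the 2 lists. *C1qa* was nearest to *Ifnar2* (distance 0.82), which stood at 115 in CCI and 83.7 in sham, and then to *Tapbp* (2.06). The *Tapbp* pair used here stood at 52.6 and 53.1, and its gene of origin was not tested. *C1qb* was nearest to *C1ra* (1.04), also lower in CCI, and then to *Sez6l2* (1.29). *C1qc* lay closest to *Cr1l* (0.06), a complement regulator at 6.81 and 5.37, followed by *Jak1* (0.49). For *H2-D1* the nearest genes were *Jak1* (0.15) and *Ifngr2* (0.33), and for *H2-K1* they were *H2-T23* (0.11) and *Calr* (0.14). Likeness over 2 values is a description and says nothing of shared control.

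C1q is made by microglia in the nervous system. The microglial markers gave 15 pairs with a median log2 ratio of -0.03, with 8 lower and 7 higher in CCI, 4 of them past 1.5-fold higher and 3 lower, beside the same 18.8% and 16.4% of all pairs. The part of cell numbers in the C1q values was not tested.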

How the data were processed

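MeRIP-seq of mouse spinal cord gave 1 IP and 1 input library per group. The authors deposited a peak list for CCI, another for sham and a table of differential peaks. The authors' fold enrichment of a peak is the ratio of IP to input signal, and the deposited log10 p and log10 false discovery rate of a peak were handled as a score. The differential table also holds the authors' log2 fold change, p-value and false discovery rate of CCI against sham, which were not used; only the presence, position and merged fold enrichment of its rows were. The submitters' processing notes name fastp, HISAT2, HOMER, ChIPseeker and GRCm38, whereas the paper's methods name Cutadapt, bowtie, MACS2 and ChIPseeker, and the column names resemble exomePeak output. The labels give 50 μg of total RNA and 150 bp reads, and the paper's methods give other figures. The paper's methods name strand-specific libraries, and the use of strand in calling is not stated. Depth is unknown because no counts were used, so fold enrichments carry no interval.

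Peaks of a gene were paired between lists as reciprocal best partners by shared over joint exonic bases, with at least 1 bp shared. A pair counts as past the fold when its ratio is at least 1.5 in either direction. Regions are the authors' annotation. RefSeq (GRCm38.p6) was used for spans and symbols. Members and lists were chosen with earlier results of these data known. Besides the 8 members, the text names, per list, at most 6 genes with the widest pairs past the fold, every gene with a peak in 1 list only, and the 2 list genes nearest to each member; *Patl2*, *H2-Q6*, *H2-Q7*, *H2-T24* and the genes with differential rows were named after their values were seen. A search for the m6A motif under the peaks was not run because no genome sequence was used here. The pairing was tested on simulated data with known partners. The simulated peaks were single blocks set far apart, so spliced peaks and a choice between candidate partners were not tested. Tables were handled with pandas 2.3.3 and numpy 2.4.6 under Python 3.11.15, intervals came from scipy 1.17.1 and plots from matplotlib 3.10.9. Alternatives were stricter limits on the false discovery rate and fold enrichment of peaks, the gene name, the overlap, the fold, centring and ranks.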

Additional observations from a re-analysis of the deposited data

How the results depend on the processing

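No paired analysis was possible because there is 1 library of each kind per group. Of 65 alternative values, 56 stayed close to the reported one (counts within 1.5 times, log2 ratios within 0.1, shares within their 95% Wilson interval), 9 moved and 0 reversed. Many could not move. Centring shifts each log2 ratio by 0.03, under the limit of 0.1, and pairs kept under the other overlap rules had the same ratio. The *H2-K1* pair lost under the stricter overlap has no ratio to count there. On the rank scale 4 single pairs stayed close and 5 moved. The number of member pairs past the fold and higher in CCI was 1 at a fold of 1.5 and 2 at the looser fold tried. The number lower in CCI was 2 at a fold of 1.5, 1 at a fold of 2, 4 at the looser fold, and 1 at a fold of 1.5 where partners had to share 50% of each peak, which removed the exon 3 pair of *H2-K1*; the change of threshold or overlap itself produced these shifts. The other 5 that moved were single pairs on the rank scale, each with the same sign, among them *C1qb* at -2.15 and the 5′-UTR pair of *C1qa* at 0.72. Members with a peak numbered 5 in each list at a false discovery rate below 0.01 and at a fold enrichment of at least 2, and 6 in each list when the peak named *Patl2* over *B2m* was counted. The last alternative, leaving out *C1qb*, and the counts past the fold after centring or with the stricter overlap were added after seeing the data. The search for GGACT under the peaks was not run. Unknown depth limits what the absence of a peak can show.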
